A study of Mus musculus with 12 samples.

Results

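The genes described here mostly encode protein parts of the splicing machinery: hnRNPs, SR proteins, SR-related proteins, U1 and U2 snRNP proteins with U2AF, and Sm and LSm proteins. They were chosen by a rule on symbols that used no measured value, though earlier results of these data were known when it was set. It took all Hnrnp, Srsf, Sf3a, Sf3b, Snrp and Lsm genes of the table, plus Rbm25, Rbm39, U2af1, U2af2, Son and Srrm2. The rule gave 72 of 45796 genes, after 4 pseudogene lines were left out. The cells were gamma delta T cells bearing the Vg4 and Vd4 chains (Vg4+Vd4+), isolated out of skin-draining lymph nodes of the C57BL/6 strain, and their RNA gave 12 libraries, 3 to a group. The groups were NF-kB1-deficient mice given imiquimod cream, wild-type mice given imiquimod cream, NF-kB1-deficient mice given sham cream and wild-type mice given sham cream. Imiquimod activates a Toll-like receptor and is used on mouse skin to provoke psoriasis-like inflammation, and NF-kB1 is the gene product from which the NF-kB subunit p50 is made. The labels give neither the age of the mice, the length of treatment, the allele behind the deficiency nor whether it is limited to some cells, and no agent other than the 2 creams.

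Introns are removed from pre-mRNA by the spliceosome, which assembles from small nuclear RNAs bound to rings of Sm or LSm proteins. U1 recognises the start of an intron, while U2AF and U2 recognise its end and branch site. SR proteins bind exons and mostly favour their inclusion, whereas hnRNPs coat nascent RNA and often oppose it, so that the balance between them sets many alternative exons. In T cells, activation is known to shift the splicing of many genes, Ptprc being a textbook case.

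Levels are given as normalized values, the authors' log2 normalized read counts taken back to the linear scale. Libraries were shallow and uneven. Steps in the low values put the reads on genes between 20545 in wild-type imiquimod replicate 3 and 69469 in wild-type sham replicate 2, with summed normalized values of 31878 to 40618. The estimates were 67075, 45961 and 51166 in NF-kB1-deficient imiquimod and 35159, 35634 and 20545 in wild-type imiquimod libraries. They were 47422, 29139 and 27150 in NF-kB1-deficient sham and 30569, 69469 and 27962 in wild-type sham libraries. Under imiquimod, depth and genotype thus cannot be told apart. On the first principal component of all tested genes (21.3% of variance) the 3 libraries of imiquimod-treated wild-type mice stood at 20.4 to 59.4 and the 9 others below 0. Nfkb1 itself stood at 5.41, 6.64 and 5.84 in NF-kB1-deficient imiquimod libraries, at 7.34, 21.0 and 0 in wild-type imiquimod libraries, at 8.82, 1.09 and 2.52 in NF-kB1-deficient sham libraries and at 6.71, 4.38 and 1.24 in wild-type sham libraries. A tag at the 3' end checks the genotype only where the altered part of the gene includes it, which the labels do not say. Tcrd, Tcrg, Tcrg-C2 and Thy1, genes of the gamma delta T cell, were above 0 in all 12 libraries, while Trdc, Tcrg-V4 and Tcrg-C1 were listed at 0 in all of them. The 13 gamma delta T cell markers, of which 11 are in the table, summed to 199 to 216 in NF-kB1-deficient imiquimod, 92.5 to 131 in wild-type imiquimod, 142 to 245 in NF-kB1-deficient sham and 158 to 211 in wild-type sham libraries. Of the alpha beta T cell markers, Tcrb was at 57.4 to 103 within a sum of 59.4 to 105, Cd8b1 reached 17.3 and Cd8a 2.60 (in NF-kB1-deficient sham replicate 1 and NF-kB1-deficient imiquimod replicate 3), and Trac, Trbc1, Trbc2 and Cd4 were at 0. The NK cell and neutrophil markers were at 0, and those of B cells, plasma cells, myeloid cells and skin made up at most 0.0489% of any library. In bulk RNA of this kind, fewer cells of a type and less RNA per cell cannot be told apart.

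Over all 72 genes the summed normalized value was highest in the wild-type imiquimod libraries. It was 671 ± 86.5 in NF-kB1-deficient imiquimod, 1090 ± 39.5 in wild-type imiquimod, 665 ± 34.5 in NF-kB1-deficient sham and 717 ± 13.1 in wild-type sham libraries (SD, n = 3 each). As shares of each library these sums were 2.04% ± 0.248 in NF-kB1-deficient imiquimod, 2.85% ± 0.246 in wild-type imiquimod, 1.98% ± 0.0487 in NF-kB1-deficient sham and 2.09% ± 0.0635 in wild-type sham libraries. Each of the 3 wild-type imiquimod libraries, at 1117, 1109 and 1045, exceeded each of the 9 others, of which the highest was NF-kB1-deficient imiquimod replicate 1 at 761. The classes did not share this order. The hnRNPs summed to 247 ± 14.9 in NF-kB1-deficient imiquimod, 459 ± 55.3 in wild-type imiquimod, 264 ± 33.8 in NF-kB1-deficient sham and 258 ± 25.2 in wild-type sham libraries. Sm and LSm genes, classed by symbol, summed to 70.5 ± 22.0 in NF-kB1-deficient imiquimod, 192 ± 38.8 in wild-type imiquimod, 78.8 ± 29.4 in NF-kB1-deficient sham and 57.8 ± 19.6 in wild-type sham libraries. U1, U2 and U2AF proteins gave 84.9 ± 18.9 in NF-kB1-deficient imiquimod, 187 ± 51.0 in wild-type imiquimod, 86.0 ± 29.9 in NF-kB1-deficient sham and 82.4 ± 13.7 in wild-type sham libraries. SR proteins gave 120 ± 28.8 in NF-kB1-deficient imiquimod, 150 ± 13.5 in wild-type imiquimod, 106 ± 30.1 in NF-kB1-deficient sham and 154 ± 7.24 in wild-type sham libraries, so that imiquimod and sham libraries of the wild type lay close together. The 4 SR-related genes instead had their lowest sum in wild-type imiquimod libraries, with 149 ± 11.9 in NF-kB1-deficient imiquimod, 102 ± 22.5 in wild-type imiquimod, 130 ± 27.1 in NF-kB1-deficient sham and 164 ± 25.8 in wild-type sham libraries. No test was made on a sum.

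**Figure D1:**
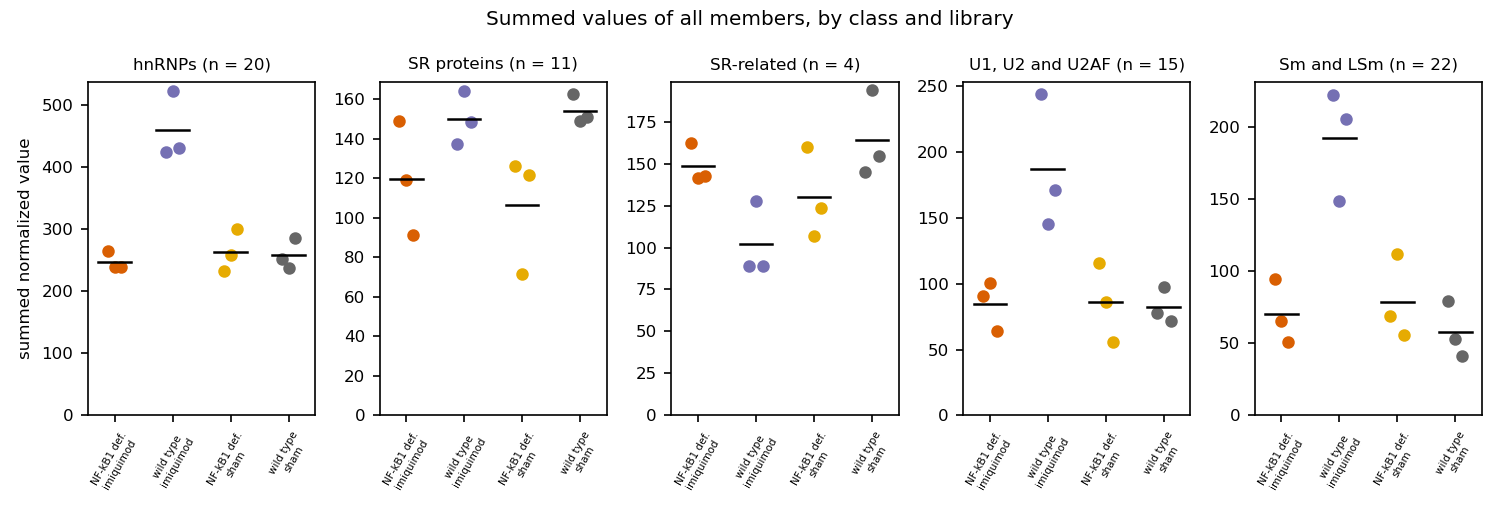
Summed normalized value of each class of splicing genes (vertical axis) in each of the 12 libraries, by group, with the group mean as a bar. The wild-type imiquimod points lie highest for hnRNPs, Sm and LSm proteins and U1, U2 and U2AF proteins, and their mean lies lowest, at 102, for the 4 SR-related genes.

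A gene was tested when its mean normalized value over the 12 libraries was at least 5, which 39 of the 72 passed: 15 of 20 hnRNPs, 8 of 11 SR proteins, all 4 SR-related genes, 5 of 15 U1, U2 and U2AF genes and 7 of 22 Sm and LSm genes. Of all 72, 70 were above 0 in some library and 19 in all 12. Srsf12 and Snrpert, the latter annotated as a pseudogene, were listed at 0 throughout. Since the 3' kit takes 1 fragment per transcript, levels can be set side by side without dividing by length. The most abundant was Srsf5, with a mean of 53.1 over the 12 libraries, followed by Hnrnpa2b1 at 52.9 and Hnrnpu at 41.0. Srrm2 at 36.5, Rbm39 at 34.0, Rbm25 at 33.5 and Son at 32.2 came next, so that the whole SR-related class lay among the 7 highest. Most other members were low: 26 of the 39 tested had means between 5 and 20.

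**Figure D2:**
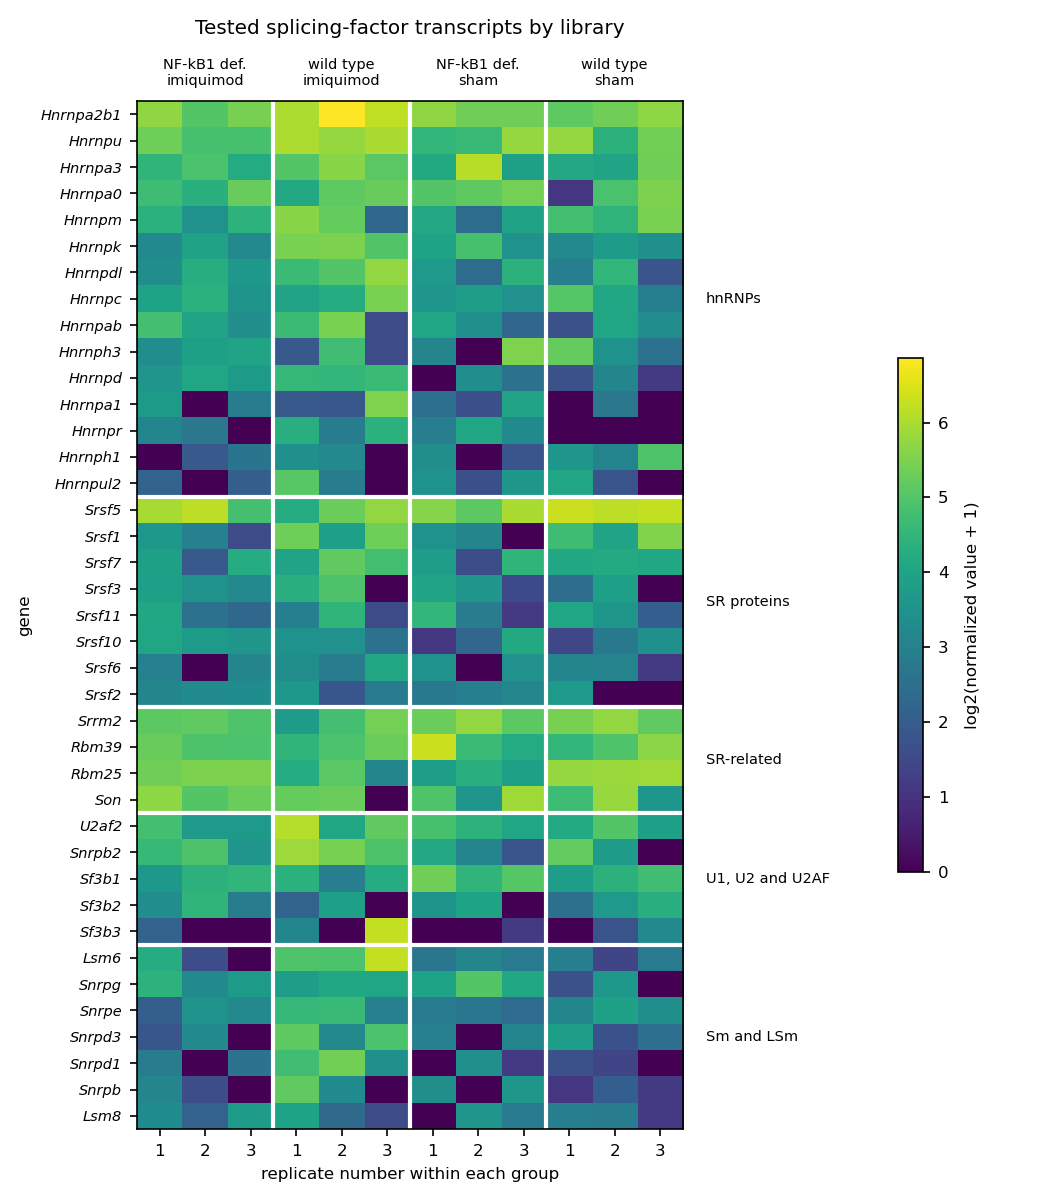
Heat map of log2(normalized value + 1) of the 39 tested splicing genes (rows, by class) in the 12 libraries (columns, by group). Low values are dark. Rbm25 is darker in the wild-type imiquimod and NF-kB1-deficient sham columns than in the others, and Hnrnpr is at 0 in the 3 wild-type sham columns.

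Differences were tested with limma on log2(normalized value + 1), with Benjamini-Hochberg adjustment over the 1571 genes that passed the limit on the mean, and called below an adjusted p of 0.05. Among the 39 tested genes, Rbm25 had the lowest p for a dependence of the imiquimod response on genotype. RBM25 is an RNA-binding protein associated with U1 snRNP, known in human cells to steer the splicing of the apoptosis gene BCL2L1. Its gene lies on the plus strand of chromosome 12 at 83632208 to 83683127 (GRCm38). Rbm25 stood at 40.1, 44.4 and 44.6 in NF-kB1-deficient imiquimod, 17.9, 33.2 and 7.92 in wild-type imiquimod, 13.2, 18.7 and 13.8 in NF-kB1-deficient sham and 54.2, 55.5 and 58.4 in wild-type sham libraries. In NF-kB1-deficient mice the imiquimod libraries were all above the sham libraries, while in wild-type mice the imiquimod libraries were all below the sham libraries. The log2 fold change of imiquimod over sham was 1.45 ± 0.55 (SE) in NF-kB1-deficient mice and -1.67 ± 0.55 in wild-type mice. Their difference, the interaction, was 3.12 ± 0.78 with an adjusted p of 0.0214. It was the 1 splicing gene called among 39, where 0.446% of the 1571 genes tested were called. None of the 4 pairwise differences of Rbm25 passed the adjustment. The adjusted p was 0.956 for imiquimod over sham in NF-kB1-deficient mice, 0.0710 for the same in wild-type mice, 0.757 for NF-kB1-deficient over wild-type under sham and 0.241 for NF-kB1-deficient over wild-type under imiquimod. Rbm25 was also the 1 tested splicing gene whose groups did not overlap in any of these 4 pairs, against 0.7% of all tested genes. That count was made after its values were seen, and the pairs share their groups.

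Over 21 alternatives the interaction of Rbm25 had log2 values of 2.32 to 3.59, and it stayed called in 10 of them. Its sign could not change with another pseudocount or without a library, since imiquimod and sham libraries did not overlap in either genotype. The call was lost without any 1 of 9 libraries, at an adjusted p of 0.0548 to 0.0945: NF-kB1-deficient imiquimod replicates 1, 2 and 3, wild-type imiquimod replicate 3, NF-kB1-deficient sham replicates 1 and 3, and wild-type sham replicates 1, 2 and 3. It was also lost with no filter on low values (0.758) and when limma's eBayes step was run without trend or robust (0.303). For imiquimod over sham in wild-type mice, Rbm25 was called with equal library totals (adjusted p = 0.0388), over the genes with means of at least 20 (0.0178), with a pseudocount of 10 (0.0450) and without wild-type imiquimod replicate 2 (0.0181). The lowest value, 7.92, came from wild-type imiquimod replicate 3, the shallowest library, where 1 read was worth 1.98.

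**Figure D3:**
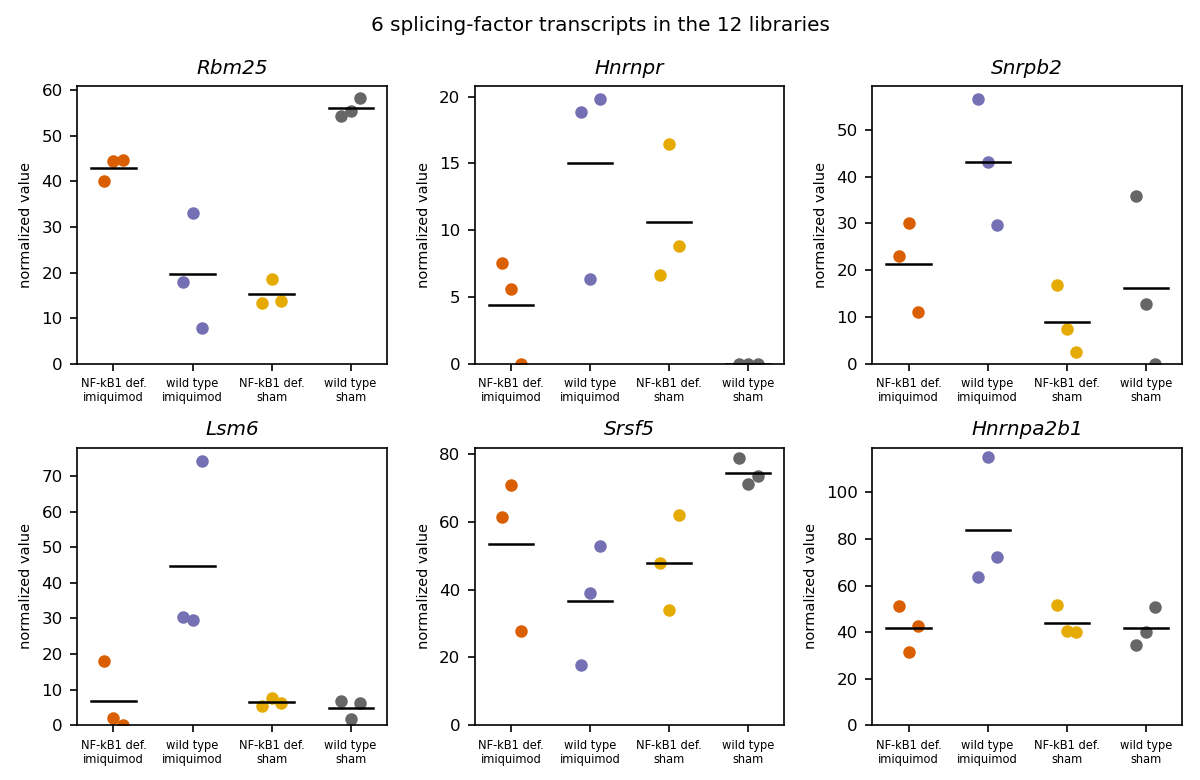
Normalized value (vertical axis) of 6 splicing genes in each library, by group, with the group mean as a bar. Rbm25 has NF-kB1-deficient imiquimod and wild-type sham points at 40.1 or more and all others at 33.2 or less, and the 3 wild-type imiquimod points of Lsm6 and Hnrnpa2b1 lie above the 9 others.

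The other 3 SR-related genes overlapped in all 4 pairs of groups. Srrm2, a scaffold of nuclear speckles, stood at 34.1, 35.4 and 30.5 in NF-kB1-deficient imiquimod, 12.9, 27.3 and 41.6 in wild-type imiquimod, 38.4, 52.4 and 34.15 in NF-kB1-deficient sham and 42.5, 53.2 and 35.4 in wild-type sham libraries. Son, the other speckle scaffold, had 51.1, 31.4 and 38.3 in NF-kB1-deficient imiquimod, 36.7, 38.4 and 0 in wild-type imiquimod, 30.1, 10.95 and 57.9 in NF-kB1-deficient sham and 25.7, 54.7 and 11.2 in wild-type sham libraries. Its replicates spread widely, with 1 wild-type imiquimod library listed at 0. Rbm39, a U2AF-related coactivator and the target of sulfonamide degrader drugs, was at 37.3, 29.9 and 29.35 in NF-kB1-deficient imiquimod, 21.5, 28.95 and 39.2 in wild-type imiquimod, 77.9, 24.6 and 17.5 in NF-kB1-deficient sham and 22.3, 30.2 and 49.7 in wild-type sham libraries. All 4 genes of the class had a negative log2 fold change for imiquimod over sham in wild-type mice, with a median of -0.99, and all 4 a positive one for NF-kB1-deficient over wild-type under imiquimod, with a median of 0.86.

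In wild-type mice, imiquimod over sham gave 28 of 39 splicing genes a positive log2 fold change, against 48.1% of all tested genes. The median was 0.75 over the 39, 0.74 without Hnrnpr (at 0 in wild-type sham libraries), and -0.07 over all 1571. With library totals made equal these were 0.62 and -0.19, so a shift of both left the gap much as it was. Of the 26 with means of 5 to 20, 22 had a positive value and the median was 0.98, against 47.3% and -0.10 for all 1329 tested genes at that level. Of the 13 with means of at least 20, 6 had a positive value and the median was -0.15, against 52.5% and 0.06 for all 242. The limit on the mean counts the wild-type imiquimod libraries, and Hnrnpr, Sf3b3, Snrpb and Snrpd1 reached it only through them, as did 209 of all tested genes. With the limit set on the 9 other libraries, a choice made after seeing the data, 24 of 35 splicing genes were positive with a median of 0.70, against 38% and -0.44 for all 1507 genes then tested. By class over the 39, 7 of 7 Sm and LSm genes (median 1.75), 12 of 15 hnRNPs (0.88), 6 of 8 SR proteins (0.58), 3 of 5 U1, U2 and U2AF genes (0.78) and 0 of 4 SR-related genes had a positive value. With the limit on the 9 other libraries the classes had 5 of 5 Sm and LSm genes (1.75), 11 of 14 hnRNPs (0.82) and 2 of 4 U1, U2 and U2AF genes (0.14) positive. Single calls were few. Of the 39, 1 was called (Hnrnpr, higher), where 3.25% of all tested genes were called and 1.65% called higher. An unadjusted p under 0.05 was reached by 11, against 19.9% of all tested genes, and 9 of these were higher, against 8.98%. The groups did not overlap for 11, against 21.5%.

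Hnrnpr encodes an RNA-binding protein of the hnRNP family close in sequence to Syncrip. It was at 7.51, 5.59 and 0 in NF-kB1-deficient imiquimod, 18.9, 6.32 and 19.8 in wild-type imiquimod, 6.62, 16.4 and 8.81 in NF-kB1-deficient sham and 0, 0 and 0 in wild-type sham libraries. All 3 wild-type sham libraries listed it at 0 and all 3 wild-type imiquimod libraries did not, with an adjusted p of 0.0485 for that comparison. No fold is given against a group at 0. Its mean over the 9 libraries outside wild-type imiquimod was 4.994, just under the limit of 5, so it was tested only through the group where it was high. A listed 0 can hide 1 or 2 reads in wild-type sham replicate 2, where 1 read was worth 0.488. The call was kept in 4 of 20 alternatives, with adjusted p from 0.0404 to 0.297 over them. It was lost without wild-type imiquimod replicate 1 or 3, wild-type sham replicate 1, 2 or 3, NF-kB1-deficient imiquimod replicate 1 or 2 and NF-kB1-deficient sham replicate 1, 2 or 3, at 0.0540 to 0.149. The last 150 bases of its transcript also match 1 pseudogene elsewhere, so its reads may be shared. For NF-kB1-deficient over wild-type under sham its adjusted p was 0.809, for NF-kB1-deficient imiquimod over sham 0.996 (log2 fold change -1.51) and for the interaction 0.194.

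Among the other hnRNPs, 4 had all 3 wild-type imiquimod libraries above the 9 others. Hnrnpa2b1, a core hnRNP that also binds methylated RNA, stood at 51.3, 31.7 and 42.8 in NF-kB1-deficient imiquimod, 63.85, 115 and 72.3 in wild-type imiquimod, 51.6, 40.5 and 40.1 in NF-kB1-deficient sham and 34.7, 40.1 and 50.9 in wild-type sham libraries. Hnrnpk, a KH-domain protein that binds cytosine-rich RNA, stood at 8.76, 14.5 and 8.43 in NF-kB1-deficient imiquimod, 43.5, 44.6 and 30.7 in wild-type imiquimod, 14.7, 27.9 and 10.5 in NF-kB1-deficient sham and 8.385, 12.9 and 9.94 in wild-type sham libraries. Neither passed the adjustment: for wild-type imiquimod over sham the log2 fold change was 0.95 ± 0.42 for Hnrnpa2b1 (adjusted p = 0.172) and 1.83 ± 0.73 for Hnrnpk (adjusted p = 0.133). Hnrnpd, known as AUF1 for binding AU-rich elements in unstable mRNAs, had 11.02, 15.7 and 12.3 in NF-kB1-deficient imiquimod, 22.8, 22.1 and 24.8 in wild-type imiquimod, 0, 9.31 and 5.03 in NF-kB1-deficient sham and 2.24, 7.81 and 1.24 in wild-type sham libraries. Its paralogue Hnrnpdl had 9.51, 18.5 and 11.7 in NF-kB1-deficient imiquimod, 24.6, 31.6 and 52.6 in wild-type imiquimod, 12.1, 4.38 and 20.1 in NF-kB1-deficient sham and 6.71, 22.2 and 2.48 in wild-type sham libraries. For wild-type imiquimod over sham these gave 2.60 ± 1.05 for Hnrnpd (adjusted p = 0.138) and 2.06 ± 0.81 for Hnrnpdl (adjusted p = 0.133), again not called. With Lsm6 and Snrpd1, 6 of the 39 splicing genes had this order of libraries, against 4.46% of all tested genes, and none had all 3 wild-type imiquimod libraries below the others, against 3.06%. This order was also looked for after the values were seen, and Snrpd1 was tested only through the wild-type imiquimod libraries.

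The remaining abundant hnRNPs did not have this order. Hnrnpu, a nuclear scaffold protein, had 39.6, 28.3 and 28.2 in NF-kB1-deficient imiquimod, 63.8, 53.7 and 62.9 in wild-type imiquimod, 22.3, 23.7 and 54.1 in NF-kB1-deficient sham and 53.7, 20.3 and 41.4 in wild-type sham libraries, where the lowest wild-type imiquimod library and the highest wild-type sham library nearly coincide. Hnrnpa3 was at 21.6, 29.2 and 17.7 in NF-kB1-deficient imiquimod, 31.6, 49.1 and 33.1 in wild-type imiquimod, 16.9, 68.2 and 13.8 in NF-kB1-deficient sham and 16.5, 15.04 and 40.6 in wild-type sham libraries. Hnrnpa3, like Hnrnpu, had each NF-kB1-deficient imiquimod library below each wild-type imiquimod library, but neither was called. Its 3' end resembles that of 33 other genes, 31 of them pseudogenes, which leaves its value uncertain. Hnrnpa0 was at 25.3, 19.6 and 37.3 in NF-kB1-deficient imiquimod, 16.8, 34.7 and 37.6 in wild-type imiquimod, 31.2, 34.5 and 42.15 in NF-kB1-deficient sham and 1.12, 28.8 and 44.1 in wild-type sham libraries. Its log2 fold change of 1.37 for NF-kB1-deficient over wild-type under sham (adjusted p = 0.809) was 0.0012 without wild-type sham replicate 1, the library at 1.12. Without wild-type sham replicate 3 it was 2.21. Hnrnpm was at 19.8, 10.5 and 20.8 in NF-kB1-deficient imiquimod, 48.7, 36.8 and 3.96 in wild-type imiquimod, 16.5, 4.38 and 14.5 in NF-kB1-deficient sham and 26.8, 21.1 and 43.8 in wild-type sham libraries, the sham groups not overlapping.

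Some differences in means came from single libraries. Hnrnpa1, a splicing repressor and the best known hnRNP, stood at 12.2, 0 and 6.49 in NF-kB1-deficient imiquimod, 2.795, 2.63 and 45.6 in wild-type imiquimod, 4.66, 2.19 and 15.1 in NF-kB1-deficient sham and 0, 5.61 and 0 in wild-type sham libraries. Wild-type imiquimod replicate 3 alone lifted that group, and the adjusted p for imiquimod over sham in wild-type mice was 0.318, with a log2 fold change of 2.20, or 0.98 without wild-type imiquimod replicate 3. Other single libraries left out took the fold change as far as 3.11. In wild-type imiquimod replicate 3 Sf3b3, a U2 snRNP subunit, also reached 74.3 where the next highest of the 12 was 8.70. In that library Lsm1, a subunit of the cytoplasmic LSm ring that was not tested, reached 31.7 where the next was 8.38. Wild-type imiquimod replicate 1 held such highs for Snrpb at 35.6, against 11.3 for the next, and for Hnrnpul2. Hnrnpul2 read 3.505, 0 and 3.24 in NF-kB1-deficient imiquimod, 32.5, 6.32 and 0 in wild-type imiquimod, 10.3, 2.19 and 11.3 in NF-kB1-deficient sham and 15.65, 2.44 and 0 in wild-type sham libraries. Wild-type sham replicate 3 held the highest Hnrnph1 value, 30.4, against 11.2 for the next.

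Of the 22 Sm and LSm genes 7 were tested, and none was called for imiquimod over sham in wild-type mice. All 7 had a positive log2 fold change there, but Snrpd1 and Snrpb reached the limit for testing only through the wild-type imiquimod libraries, with means of 2.96 and 4.03 over the 9 others. Lsm6, a subunit of the rings that bind U6 RNA in the nucleus and decaying mRNA in the cytoplasm, lies on the minus strand of chromosome 8. It stood at 18.1, 2.096 and 0 in NF-kB1-deficient imiquimod, 30.4, 29.5 and 74.3 in wild-type imiquimod, 5.51, 7.66 and 6.29 in NF-kB1-deficient sham and 6.71, 1.71 and 6.21 in wild-type sham libraries. For wild-type imiquimod over sham its log2 fold change was 2.97 ± 1.04 (adjusted p = 0.0933), and for NF-kB1-deficient over wild-type under imiquimod it was -3.42 ± 1.04 (adjusted p = 0.0661). Snrpd1, a core Sm protein, was at 6.51, 0 and 5.09 in NF-kB1-deficient imiquimod, 26.2, 41.05 and 9.904 in wild-type imiquimod, 0, 9.85 and 1.26 in NF-kB1-deficient sham and 2.24, 1.71 and 0 in wild-type sham libraries. Its lowest wild-type imiquimod value only just exceeded the highest of the others, and the log2 fold change over wild-type sham was 3.49 ± 1.23 (adjusted p = 0.0951). Snrpd3, another core Sm protein, had 2.59, 8.66 and 0 in NF-kB1-deficient imiquimod, 34.9, 8.42 and 29.4 in wild-type imiquimod, 6.93, 0 and 7.55 in NF-kB1-deficient sham and 13.4, 2.29 and 4.66 in wild-type sham libraries. Snrpg, the Sm G protein, differed in that NF-kB1-deficient sham libraries were high too: it read 20.6, 8.82 and 12.4 in NF-kB1-deficient imiquimod, 13.45, 15.97 and 15.5 in wild-type imiquimod, 14.7, 31.75 and 16.15 in NF-kB1-deficient sham and 2.24, 11.7 and 0 in wild-type sham libraries. For Snrpg the log2 fold change was 2.21 ± 0.94 for wild-type imiquimod over sham (adjusted p = 0.155) and 2.58 for NF-kB1-deficient over wild-type under sham (adjusted p = 0.809). Without wild-type sham replicate 3 these were 1.31 and 1.69, and without other single libraries as far as 3.15 and 3.52.

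Snrpb2 encodes the U2 snRNP protein that binds U2 RNA beside Snrpa1. It had 22.96, 30.04 and 11.03 in NF-kB1-deficient imiquimod, 56.5, 43.2 and 29.7 in wild-type imiquimod, 16.8, 7.515 and 2.52 in NF-kB1-deficient sham and 35.8, 12.7 and 0 in wild-type sham libraries. Wild-type sham replicate 1 overlapped the wild-type imiquimod libraries, and the log2 fold change was 2.43 ± 0.83 with an adjusted p of 0.0835. The result turned on single sham libraries: the log2 fold change was 3.53 without wild-type sham replicate 1 (adjusted p = 0.0219, called) and 0.93 without wild-type sham replicate 3, the library at 0 (adjusted p = 0.549). U2af2, the large U2AF subunit that reads the polypyrimidine tract, had 27.04, 11.9 and 12 in NF-kB1-deficient imiquimod, 67.6, 16.3 and 35.65 in wild-type imiquimod, 28.3, 20.8 and 15.7 in NF-kB1-deficient sham and 17.3, 31.2 and 13.7 in wild-type sham libraries. These values overlapped in all pairs of groups. U2af1, its small partner, was below the limit for testing, with a highest value of 18.3 in 1 wild-type imiquimod library.

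SR proteins were split. Srsf5 stood at 61.5, 71.1 and 27.8 in NF-kB1-deficient imiquimod, 17.8, 38.95 and 52.9 in wild-type imiquimod, 48.02, 33.9 and 61.97 in NF-kB1-deficient sham and 78.9, 71.3 and 73.5 in wild-type sham libraries. Wild-type sham libraries were the tightest group and lay above the wild-type imiquimod and the NF-kB1-deficient sham libraries. The log2 fold change of imiquimod over sham in wild-type mice was -1.14 ± 0.43 (adjusted p = 0.119), and -0.70 without wild-type imiquimod replicate 1. Other single libraries left out took it as far as -1.46. Srsf1, the founding SR protein, had 11.5, 6.99 and 1.95 in NF-kB1-deficient imiquimod, 39.8, 13.7 and 39.6 in wild-type imiquimod, 10.3, 7.66 and 0 in NF-kB1-deficient sham and 25.7, 15.1 and 45.96 in wild-type sham libraries. All 6 NF-kB1-deficient libraries lay below all 6 wild-type libraries. This order was not among the planned comparisons, and its share over all tested genes was not counted. For NF-kB1-deficient over wild-type the log2 fold change was -2.12 under imiquimod (adjusted p = 0.241) and -2.56 under sham (adjusted p = 0.809), so neither was called. Under sham it was -1.46 without NF-kB1-deficient sham replicate 3, the library at 0, and as far as -3.21 without other single libraries. Srsf10, which represses splicing when dephosphorylated in stressed human cells, had 15.7, 12.4 and 11.03 in NF-kB1-deficient imiquimod, 10.5, 10 and 4.95 in wild-type imiquimod, 1.103, 3.79 and 16.99 in NF-kB1-deficient sham and 1.75, 5.83 and 9.798 in wild-type sham libraries. Each NF-kB1-deficient imiquimod library lay above each wild-type imiquimod library.

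Of the Sm, U2 and SR genes with low p, Snrpb2, Lsm6 and Srsf5 are shown with Hnrnpr by their promoters, so that the start regions of genes with positive and negative fold changes can be compared. Each run is the 300 bases from 250 before to 50 after the RefSeq start on the gene's own strand (RefSeq, GRCm38.p6), and capitals mark motif matches on either strand. The places are chr4:136310692-136310991 (plus) for Hnrnpr, the first of 2 listed starts, chr2:143062819-143063118 (plus) for Snrpb2, chr8:78821103-78821402 (minus) for Lsm6 and chr12:80945249-80945548 (plus) for Srsf5.
Hnrnpr: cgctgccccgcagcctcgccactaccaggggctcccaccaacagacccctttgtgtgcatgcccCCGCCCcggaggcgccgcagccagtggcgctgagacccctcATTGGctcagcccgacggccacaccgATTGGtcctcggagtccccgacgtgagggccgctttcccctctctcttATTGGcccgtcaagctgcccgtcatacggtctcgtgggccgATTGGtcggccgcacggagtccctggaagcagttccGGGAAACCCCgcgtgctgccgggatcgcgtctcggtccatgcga
Snrpb2: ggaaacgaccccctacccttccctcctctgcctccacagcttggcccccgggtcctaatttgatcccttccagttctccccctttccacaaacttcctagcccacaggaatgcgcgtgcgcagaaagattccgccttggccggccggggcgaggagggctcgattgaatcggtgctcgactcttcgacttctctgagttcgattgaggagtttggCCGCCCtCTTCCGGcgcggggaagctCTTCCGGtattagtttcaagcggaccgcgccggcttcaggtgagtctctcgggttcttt
Lsm6: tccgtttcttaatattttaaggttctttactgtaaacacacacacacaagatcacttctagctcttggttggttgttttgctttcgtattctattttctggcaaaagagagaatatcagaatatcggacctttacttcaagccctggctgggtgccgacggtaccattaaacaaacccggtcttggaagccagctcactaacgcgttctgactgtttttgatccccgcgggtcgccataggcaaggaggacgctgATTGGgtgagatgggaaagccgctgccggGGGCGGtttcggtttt
Srsf5: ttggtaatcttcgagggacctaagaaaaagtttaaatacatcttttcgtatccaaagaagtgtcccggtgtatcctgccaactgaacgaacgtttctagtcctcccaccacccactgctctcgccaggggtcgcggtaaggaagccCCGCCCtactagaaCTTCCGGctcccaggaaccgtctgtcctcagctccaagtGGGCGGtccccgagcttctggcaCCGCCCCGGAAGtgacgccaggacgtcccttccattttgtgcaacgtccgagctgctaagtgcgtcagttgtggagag
Hnrnpr, at 0 in wild-type sham libraries, has 4 CCAAT boxes, 1 GC box and 1 match to the kappa B motif that reads on both strands, 7 to 16 bases past the start. Snrpb2 has 2 ETS cores and 1 GC box just before its start, and Lsm6 has 1 CCAAT and 1 GC box after it. Srsf5, with a negative fold change for imiquimod over sham in wild-type mice, has 3 GC boxes and 2 ETS cores, of which 1 pair shares a base. Of the 39 tested genes, 35 had an entry, with 45 windows in all. GC boxes (GGGCGG) were in 62.2% of these windows against 35.7% of all 32851, CCAAT boxes (CCAAT) in 53.3% against 37.4%, and ETS cores (CCGGAAG) in 24.4% against 8.86%. E-boxes (CACGTG) were in 6.67% against 7.15%, TATA boxes (TATAAA) in 13.3% against 13.6%, an NRF1 core in 2.22% against 0.971% and the kappa B motif in 6.67% against 8.46%. The 32851 windows were not limited to genes that passed the limit on the mean, as the 45 were. Shares over the windows of all tested genes were not counted, so whether any gap is particular to splicing genes was not tested. These matches are letters in a window and not sites of binding.

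In NF-kB1-deficient mice imiquimod over sham called 0 of 39 splicing genes and 0% of all tested genes, and 1 splicing gene (Rbm25) had an unadjusted p under 0.05, against 3.37% of all tested genes. The median log2 fold change was 0.09 over the 39 genes and 0.14 over all, and 22 were positive, against 56% of all. The median over the 39 was -0.13 without NF-kB1-deficient imiquimod replicate 1 or NF-kB1-deficient sham replicate 2. By class the medians were -0.09 for hnRNPs, -0.32 for Sm and LSm, 0.33 for U1, U2 and U2AF, 0.21 for SR proteins and 0.26 for SR-related genes. Groups did not overlap for Rbm25 and Hnrnpd, 2 of 39, against 11.7%. After Rbm25 the lowest p belonged to Hnrnpd, with a log2 fold change of 1.81, followed by Snrpb2 (1.36), Hnrnpr (-1.51), Srsf10 (1.30) and Hnrnpul2 (-1.51), with an adjusted p of 0.996 for each. Leaving out 1 library brought each nearer to 0: Hnrnpd was at 0.82 without NF-kB1-deficient sham replicate 1, Snrpb2 at 0.75 without NF-kB1-deficient sham replicate 3, Hnrnpr at -0.54 without NF-kB1-deficient imiquimod replicate 3, Srsf10 at 0.58 without NF-kB1-deficient sham replicate 1 and Hnrnpul2 at -0.80 without NF-kB1-deficient imiquimod replicate 2. These data leave room for changes of some size, since the median half-width of the 95% interval of a splicing gene was 1.95 on the log2 scale.

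**Figure D4:**
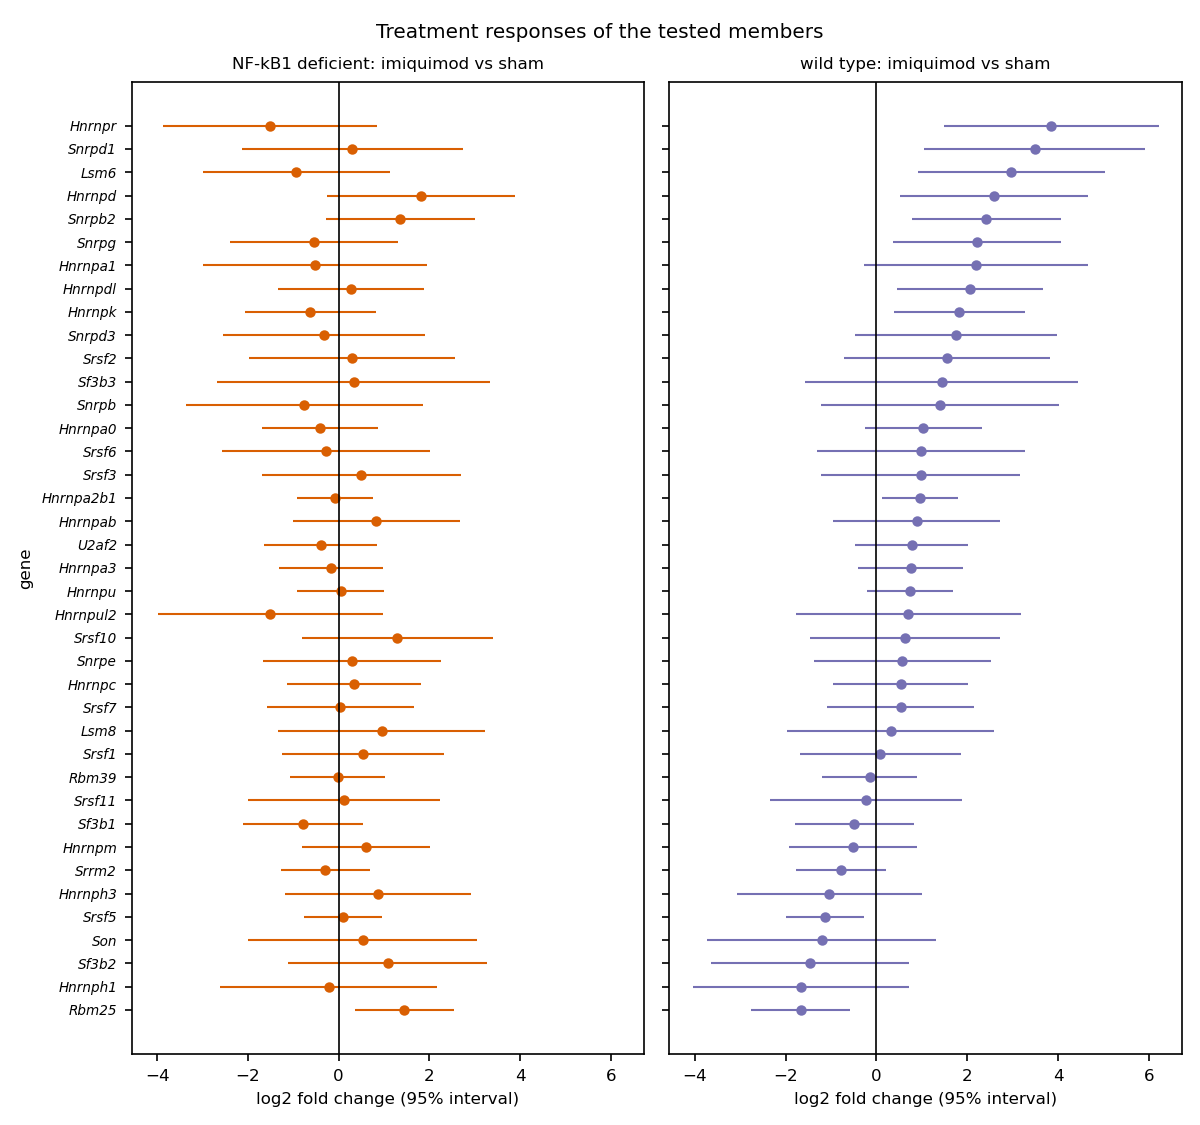
Log2 fold change of imiquimod over sham (horizontal axis, with 95% interval) for the 39 tested splicing genes, in NF-kB1-deficient mice at left and wild-type mice at right. In the wild-type panel 28 of 39 points lie right of 0, in the NF-kB1-deficient panel 22 do, and Rbm25 lies on opposite sides.

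Under sham cream, NF-kB1-deficient over wild-type called 0 of 39 splicing genes and 0% of all tested genes. The median log2 fold change was 0.01 over the 39 and -0.02 over all, and 20 were positive, against 48.6% of all. Without wild-type sham replicate 3 the median over the 39 was -0.21. An unadjusted p under 0.05 was reached by 6, against 6.11% of all tested genes. Of these, 3 were higher (2.48% of all tested genes) and 3 lower (3.63%). Groups did not overlap for 7, against 9.36%. Hnrnpr and Snrpg lay higher in all NF-kB1-deficient sham libraries, 2 of 39 against 4.71%, and Rbm25, Srsf1, Srsf5, Hnrnpm and Snrpe lower, 5 of 39 against 4.65%. For Hnrnpm the log2 fold change was -1.42 (adjusted p = 0.809). It was -0.88 without NF-kB1-deficient sham replicate 2 and as far as -1.73 without other single libraries. For Rbm25 the log2 fold change was -1.83 ± 0.55 (adjusted p = 0.757).

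Under imiquimod, NF-kB1-deficient over wild-type called 0 of 39 splicing genes, where 1.78% of all tested genes were called. The median log2 fold change was -0.71 over the 39 and 0.13 over all, and 13 were positive, against 53.7% of all. With equal library totals these medians were -0.60 and 0.32. Over the 13 genes with means of at least 20 the median was -0.082, and over all 39 it was -0.44 without wild-type imiquimod replicate 1. An unadjusted p under 0.05 was reached by 7, against 14.3% of all tested genes, of which 6 were lower, against 5.41%. Groups did not overlap for 11, against 21.1%, of which 9 were lower, against 10.3%. Hnrnpr, Sf3b3, Snrpb and Snrpd1, tested only through the wild-type imiquimod libraries, were all negative here, and Snrpd1 is among the 6 and the 9. With the limit on the mean of the other libraries, 13 of 35 were positive. The median was then -0.61, against 0.46 over all 1507 genes. The 6 lowest p belonged to Lsm6, Hnrnpk (-1.83, adjusted p = 0.200), Snrpd3 (-2.74, adjusted p = 0.222), Rbm25, Srsf1 and Hnrnpa2b1 (-0.96, adjusted p = 0.257). Of these Rbm25 alone was positive, at 1.30 (adjusted p = 0.241). It was 0.79 without wild-type imiquimod replicate 3 and up to 1.76 without other single libraries. This comparison shares the wild-type imiquimod libraries with that of imiquimod over sham in wild-type mice, so the opposite signs of both medians rest in part on the same libraries. Each NF-kB1-deficient imiquimod library also had more estimated reads than each wild-type imiquimod library, and the part of depth was not tested.

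The interaction, the imiquimod response of NF-kB1-deficient mice minus that of wild-type mice, had a median of -0.69 over the 39 genes and 0.24 over all 1571, and 13 were positive, against 55% of all. An unadjusted p under 0.05 was reached by 6, against 10.8% of all tested genes. Hnrnpr, Sf3b3, Snrpb and Snrpd1, tested only through the wild-type imiquimod libraries, were all negative, and Hnrnpr is among the 6. With the limit on the mean of the other libraries the median was -0.48, against 0.55 over all 1507 genes. Past Rbm25 none was called: Lsm6 was at -3.90 (adjusted p = 0.290), Hnrnpk at -2.45 (adjusted p = 0.337), Snrpg at -2.75 (adjusted p = 0.426) and Srsf5 at 1.23 (adjusted p = 0.462). Srsf5 was at 0.79 without wild-type imiquimod replicate 1 and up to 1.63 without other single libraries. By class the medians were -2.15 for Sm and LSm, -0.92 for hnRNPs, -1.07 for U1, U2 and U2AF, -0.06 for SR proteins and 1.11 for SR-related genes.

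Other genes of the pathway were taken as whole lists. In the list of alternative splicing regulators 31 of 52 were tested, and none of them was called for imiquimod over sham in either genotype, between the genotypes under sham or in the interaction. None was called in any comparison among the 8 tested of 22 tri-snRNP and U1, U5 and U11 proteins, the 19 tested of 49 NTC, helicase and exon junction genes, or the 9 tested of 12 genes of the 3' splice site. For imiquimod over sham in wild-type mice the median was 0.53 for the tri-snRNP list, 0.37 for the NTC list, -0.18 for the 3' splice site list and 0.19 for the alternative splicing regulators. None of the 15 snRNP assembly genes was abundant enough to test.

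Proliferation genes were high in the libraries where the hnRNP and Sm sums were. The 22 genes of that list summed to 182, 79.9 and 127 in NF-kB1-deficient imiquimod, 546, 320 and 685 in wild-type imiquimod, 54.8, 69.0 and 145 in NF-kB1-deficient sham and 51.0, 49.97 and 41.6 in wild-type sham libraries. For imiquimod over sham in wild-type mice, 6 of its 13 tested genes were called, all higher, against 1.65% of all tested genes. The median was 3.36. Of the called genes, Lig1, Birc5, Mcm7 and Top2a reached the limit on the mean only through the wild-type imiquimod libraries, while Tuba1b and H2afz passed it without them. Stmn1, Pcna, Mcm3, Mcm5 and Mcm6, not called, also reached it only through those libraries, so the median and the count rest in part on that choice. Top2a, the topoisomerase of dividing cells, stood at 14.7, 3.84 and 9.41 in NF-kB1-deficient imiquimod, 15.2, 12.6 and 76.1 in wild-type imiquimod, 2.94, 0 and 5.03 in NF-kB1-deficient sham and 0, 3.08 and 0 in wild-type sham libraries. The part of these genes in the splicing results was not tested. The gamma delta T cell marker sums given above were lowest in the same wild-type imiquimod libraries, and their part was not tested either.

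The 33 untested genes were low or patchy: 31 were above 0 in some library, 20 of the 33 were above 0 in at most 4 libraries, and the highest single value was the 31.7 of Lsm1. By level, Lsm8 with a mean of 6.49 was the lowest tested and Lsm1 with 4.83 the highest untested. Lsm5, an LSm ring subunit, was above 0 in the 3 NF-kB1-deficient imiquimod libraries and listed at 0 in the 9 others. It peaked at 2.504, and a read can be hidden behind a listed 0 in some of those libraries. The wild-type imiquimod libraries, among those at 0, had fewer estimated reads than the NF-kB1-deficient imiquimod libraries. Sf3b6, the branch site protein of U2, stood at 12.6, 30.5 and 0 in wild-type imiquimod libraries and at most 5.15 in the 9 others.

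Splicing genes are known to control their own mRNAs through exons that expose them to nonsense-mediated decay, and the annotation shows such forms. A transcript marked for that decay was annotated (GENCODE M21) for 59.0% of the 39 tested genes and 29.3% of all tested genes with a match. By class it was 87.5% of the 8 SR proteins, 53.3% of the 15 hnRNPs and 28.6% of the 7 Sm and LSm genes. The 39 also had more annotated transcripts, with a median of 8 against 6 for all. A retained-intron transcript was annotated for 84.6% of the 39 and 69.2% of all. Tags at the 3' end do not tell these forms apart. Of the 39, 9 had a 3' end closely resembling that of another gene and are uncertain to that extent: Hnrnpa3, Hnrnpk, Hnrnpc, Hnrnpab, Hnrnph1, Hnrnpr, Snrpe, Srsf2 and Srsf10. Rbm25 had none.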

How the data were processed

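Trizol was used to extract RNA and the forward QuantSeq 3' mRNA kit to prepare libraries, per the labels' protocols. Per the submitters' processing notes the build was mm10. For alignment, counting and normalization, the sources used here name no tool. The authors deposited log2 normalized read counts for 45796 genes, which were taken back to the linear scale and are called normalized values. Entries not above 0 on the log2 scale were set to a linear 0, so no linear value could lie between 0 and 1. The lowest value above 0 was 1.001. Low values fell on steps, of which 52.0% to 75.8% were within 0.01 of a whole read, too few to recover counts, so depths are estimates and no count test was run. None of the 66 pairs of libraries held identical values. Whether the 3 replicates of a group were different mice is not stated in the labels. P-values therefore cover the spread among these libraries only, and that spread may be technical.

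Tests used limma 3.58.1 (R 4.3.3, with data.table at version 1.17.8) on log2(normalized value + 1) for the 1571 genes with a mean of at least 5, in 1 fit of 12 libraries with eBayes trend and robust (8 residual and a median of 145 prior degrees of freedom). Fold changes on this scale understate low genes. Benjamini-Hochberg adjustment ran over the 1571 genes and calls are at an adjusted p under 0.05. SE is moderated. Groups do not overlap when every library of one lies above every library of the other. The genes and lists were chosen with earlier results of these data known. Genes given with all values are those called, the 12 with the lowest p for wild-type imiquimod over sham, the 6 with the lowest p in each other comparison, the 12 most abundant and the top 2 of each class. Promoters and motifs were read with Python 3.11.15, tables with pandas 2.3.3, and similar 3' ends (95% identity over at least 75 of the last 150 bases) found with BLAST+ 2.17.0. Figures were drawn with matplotlib 3.10.9. Alternatives were pseudocounts of 0.1 and 10, a mean of at least 20, no filter, equal totals, eBayes without trend or robust, fits of only the compared groups, a replicate block and leaving out each library. Setting a listed 0 to 1 and putting the limit on the mean of the 9 libraries outside wild-type imiquimod were added after seeing the data. The calls of the alternative splicing regulators between genotypes under imiquimod are not reported here.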

Additional observations from a re-analysis of the deposited data

Results flagged for a closer look

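Rbm25 is listed here because its imiquimod response differed between genotypes in a test of the difference itself. The log2 response to imiquimod was 1.45 ± 0.55 (SE) in NF-kB1-deficient mice and -1.67 ± 0.55 in wild-type mice, a difference of 3.12 (limma, adjusted p = 0.0214, n = 3 libraries a group). All 3 NF-kB1-deficient imiquimod libraries lay above the NF-kB1-deficient sham libraries, and all 3 wild-type imiquimod libraries lay below the wild-type sham libraries. The call was lost without any 1 of 9 libraries (adjusted p of 0.0548 to 0.0945), with no filter on low values (0.758) and without trend or robust (0.303).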

How the results depend on the processing

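No called value changed sign under any alternative. The imiquimod and sham libraries behind both calls do not overlap, so another pseudocount or leaving out a library could not change a sign. The causes of the shifts below were not tested. For imiquimod over sham in wild-type mice, the number of splicing genes called was 1 as reported (Hnrnpr), 0 with no filter, with a pseudocount of 0.1 and with the limit on the 9 libraries outside wild-type imiquimod, 2 with a listed 0 set to 1 (Lsm6 and Snrpd1), 3 with a pseudocount of 10 (Lsm6, Rbm25 and Snrpd1) and 0 to 2 leaving out a library. It was also 1 in other settings, but not always Hnrnpr: Rbm25 with equal totals and at a mean of at least 20, Lsm6 with only the compared groups, and Snrpb2 without wild-type sham replicate 1. Their median log2 fold change of 0.75 was -0.15 at a mean of at least 20, 0.41 with a pseudocount of 10 and 0.50 to 0.83 leaving out a library. For NF-kB1-deficient over wild-type under imiquimod, 0 were called as reported, 1 (Lsm6) with only the compared groups, with a listed 0 set to 1 and with a pseudocount of 10, and 0 to 1 leaving out a library. For that comparison the median of -0.71 was -0.082 at a mean of at least 20, -0.47 with no filter, -0.43 with a pseudocount of 10 and -0.87 to -0.44 leaving out a library. For the interaction, 1 was called as reported, 0 with no filter and 0 without trend or robust, and 0 to 1 leaving out a library. Its median of -0.69 was -0.50 with equal totals, -0.30 at a mean of at least 20, -0.44 with no filter, -0.48 with a pseudocount of 0.1 and with the limit on the 9 libraries outside wild-type imiquimod, -0.41 with a pseudocount of 10 and -0.81 to -0.48 leaving out a library. The median was -0.13 to 0.20 for NF-kB1-deficient imiquimod over sham and -0.21 to 0.14 for NF-kB1-deficient over wild-type under sham, leaving out a library. The summed value of wild-type imiquimod was 993 with equal totals. Equal totals moved the median of all genes for imiquimod over sham in wild-type mice to -0.19, and its calls over all genes to 19 higher and 29 lower, against 26 and 25. The limit on the 9 libraries outside wild-type imiquimod moved that median to -0.44 and those calls to 14 higher and 17 lower. Over the single genes named, 716 comparisons with an alternative kept direction and side of the threshold, 15 gained and 27 lost a call.

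No pairing by replicate number was assumed, since 0 of 18 same-numbered pairs had a correlation of deviations over 0.1. As a hint from the data the other way, 9 of 12 libraries correlated best, among the 9 libraries outside their own group, with one of the 3 that share their number. With the replicate as a block, calls over all genes for imiquimod over sham in wild-type mice were 55 against 51, 1 splicing gene was called for NF-kB1-deficient over wild-type under imiquimod (Lsm6, adjusted p = 0.0480), and Rbm25 stayed called in the interaction (adjusted p = 0.0168).

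Depth limits these results: at 20545 to 69469 estimated reads a library, most splicing genes rest on few reads.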
